A study of Mus musculus with 6 samples.

Results

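The comparison described here sets 2 isomers of conjugated linoleic acid (CLA) against each other in ritonavir-treated fat cells: the array labelled with ritonavir and t10,c12-CLA minus the array labelled with ritonavir and c9,t11-CLA. These are 2 of the 6 arrays of the series. The cells were 3T3-L1 adipocytes, fat cells that form in culture from a mouse preadipocyte line after induction with insulin, dexamethasone and isobutylmethylxanthine, and they were treated for 5 days while they matured in medium with insulin. Both isomer groups received ritonavir, a protease inhibitor used against HIV, at 20 µM, and 1 isomer each at 100 µM. A control group received ritonavir at 20 µM and DMSO at 0.1% as the fatty acid vehicle. Other groups of the series received ritonavir alone at 20 µM, tenofovir, a reverse transcriptase inhibitor, at 1 µM, or ethanol at 0.1%. The labels leave unsaid whether the CLA groups also held DMSO, so the isomer arrays are matched to each other in dose and time but not known to be matched to the DMSO array in vehicle. RNA of 4 replicate experiments was pooled for each group and hybridised to 1 array, an Affymetrix mouse genome array whose values the authors deposited on the log2 scale after RMA. Each group is therefore 1 value per gene. No spread between replicates, SD or test exists for any difference below, and a gene called higher or lower is so only between these arrays.

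CLA isomers are linoleic acids whose double bonds are conjugated, and the isomers compared here differ in where along the chain these bonds lie and in which of them is cis and which trans. Rumen bacteria make c9,t11-CLA, the main isomer of milk and ruminant fat, while t10,c12-CLA is the isomer known for lowering fat mass in mice and milk fat in cows. A maturing adipocyte switches on the transcription factors PPAR gamma and C/EBP alpha, which turn on genes for fatty acid synthesis, triglyceride storage, lipid droplet coats, insulin-dependent glucose uptake and secreted adipokines. Genes of fatty acid and cholesterol synthesis are also under the SREBP factors, which are activated when sterols or polyunsaturated fatty acids are scarce and when insulin is present.

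The table names 18194 genes. A gene is called detected if its value was at or above the median of the whole table, 6.55, on any of the 6 arrays, which held for 12386, and 12009 of them did so on at least 1 isomer array. The isomer arrays correlated at 0.993 across all probe sets, those of c9,t11-CLA and DMSO correlated at 0.997, and the tenofovir and ethanol arrays at 0.998. The middle spread of the differences over the detected genes, as a robust SD of log2 values, was 0.23 between the isomers, 0.14 between c9,t11-CLA and DMSO and 0.11 between tenofovir and ethanol. Of the fixed adipocyte markers, Adipoq, Fabp4, Cidec, Pparg, Lipe and Slc2a4 were above the level on every array, so that both isomer arrays carry the RNA of fat cells.

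With t10,c12-CLA, 118 genes were at least 2-fold higher than with c9,t11-CLA (0.953% of those detected) and 189 were at least 2-fold lower (1.53%). The largest lower values were those of Thrsp, Gpd1, Retn and Mrap, and the largest higher values those of Hmga2, Serpinb9b, Gsta2 and S100a7l2. At 3-fold, 23 genes were higher and 53 lower. The median difference over all detected genes was 0.01, with 51.8% of genes above 0. These shares are the background for every list count below. The 2-fold line cuts through a dense range: Gla (1.0053), Cpt1a (1.0042) and Cryab (1.0037) lay just inside it on the high side and Arhgap44 (0.99971), Axl (0.99922) and Emp2 (0.99487) just outside. On the low side Fads1 (-1.0021), Sqle (-1.0007) and Mvd (-1.00057) lay inside and Spry4 (-0.999), Rassf6 (-0.99359) and Tmem241 (-0.99313) outside. Of the 307 genes, 48 had 1 isomer array under the detection level and 4 had both there, and the size of such a difference is uncertain.

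**Figure D1:**
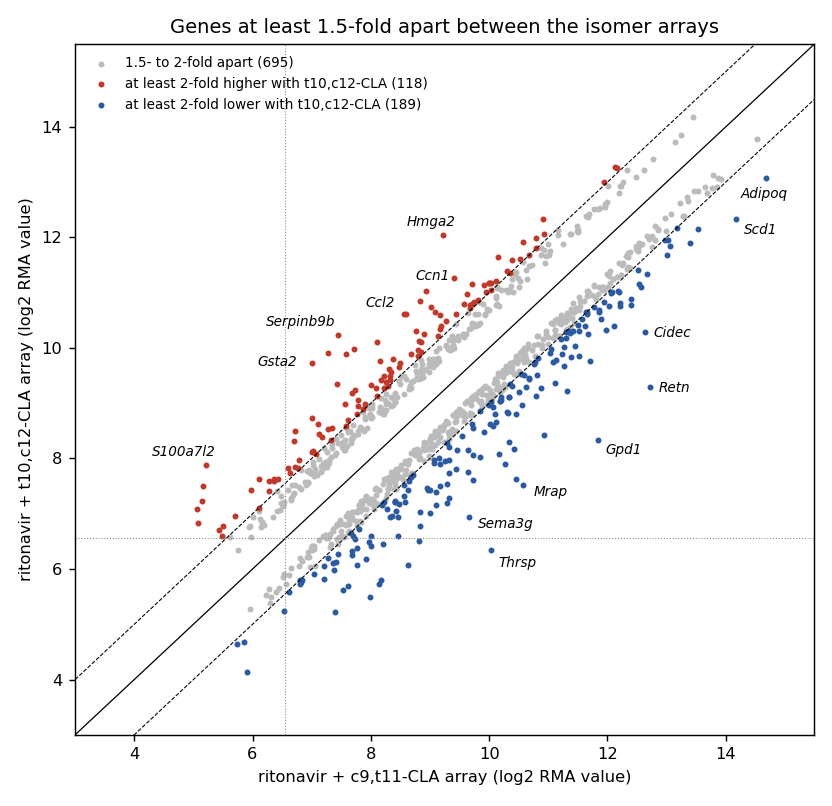
Log2 RMA value of each gene on the c9,t11-CLA array (horizontal axis) and on the t10,c12-CLA array (vertical axis), for genes at least 1.5-fold apart. The dashed lines mark 2-fold and the dotted lines the detection level of 6.55. The 189 lower genes (blue) reach from low to the highest levels, with Adipoq and Scd1 at the top, and among the 118 higher genes (red) Hmga2 and Serpinb9b lie farthest above the diagonal.

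Thrsp, which encodes a small nuclear protein that goes with active fat synthesis, had the largest difference. Its value was 10.20 with ethanol, 10.37 with tenofovir, 6.21 with ritonavir alone, 10.06 with ritonavir and DMSO, 10.03 with c9,t11-CLA and 6.34 with t10,c12-CLA. The t10,c12-CLA and ritonavir arrays stood apart at the low end, both under the detection level, and the other 4 arrays lay close together. The difference between the isomers was -3.69, or -3.48 with the low value raised to the level. Other probe sets of Thrsp differed by -1.38 and 0.07. Gpd1, the glycerol phosphate dehydrogenase that feeds triglyceride synthesis, had values of 12.94 with ethanol, 13.02 with tenofovir, 7.12 with ritonavir, 11.50 with DMSO, 11.85 with c9,t11-CLA and 8.34 with t10,c12-CLA, a difference of -3.51 (11.4-fold), and its other probe sets differed by -1.95 and -0.25. Retn, which encodes the adipokine resistin, was at 14.47, 14.54, 7.89, 12.31, 12.72 and 9.30 on the arrays in the same order, a difference of -3.42 (10.7-fold). Mrap, the accessory protein that brings the ACTH receptor to the cell surface, was at 12.41, 12.43, 5.06, 10.56, 10.58 and 7.51, a difference of -3.07. In each of these genes the level with c9,t11-CLA stayed near that with DMSO and the level with t10,c12-CLA lay between it and that of ritonavir alone, or next to the latter.

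The 250 bases upstream of the RefSeq start site are shown for the 3 largest lower genes that have such a window in the table used, all read 5′ to 3′ in the gene's direction from GRCm38.p6, with the last base just before the start. The windows are chr7:97417551-97417800 (minus strand) for Thrsp, chr8:3655520-3655769 (plus strand) for Retn and chr7:126676419-126676668 (minus strand) for Sult1a1. Capitals mark the motifs found in them: in Thrsp the CCAAT box, CCAAT or ATTGG, at -79 and -52 and a C/EBP site, TTGCNNNAA, at -57 that overlaps the second box, in Retn an NF-kB site at -109, and in Sult1a1 a CCAAT box at -133.
Thrsp: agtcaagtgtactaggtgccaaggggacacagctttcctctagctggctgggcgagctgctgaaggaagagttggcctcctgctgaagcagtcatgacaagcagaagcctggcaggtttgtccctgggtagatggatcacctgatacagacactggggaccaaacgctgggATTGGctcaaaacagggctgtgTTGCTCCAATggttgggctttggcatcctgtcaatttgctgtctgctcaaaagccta
Retn: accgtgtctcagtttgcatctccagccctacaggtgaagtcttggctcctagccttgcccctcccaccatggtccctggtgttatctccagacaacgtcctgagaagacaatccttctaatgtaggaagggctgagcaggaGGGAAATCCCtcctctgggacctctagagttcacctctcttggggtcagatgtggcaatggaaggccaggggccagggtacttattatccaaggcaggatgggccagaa
Sult1a1: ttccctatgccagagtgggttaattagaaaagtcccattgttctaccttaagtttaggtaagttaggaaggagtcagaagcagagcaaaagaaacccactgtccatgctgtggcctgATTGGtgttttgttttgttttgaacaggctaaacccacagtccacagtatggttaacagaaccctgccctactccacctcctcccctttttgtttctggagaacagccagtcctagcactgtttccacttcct
Over all 10009 detected genes with a window, 36.3% held a CCAAT box, 6.43% the C/EBP letters and 4.39% an NF-kB site on either strand. Among the 136 windows of lower genes the shares were 44.1%, 8.09% and 7.35%. A match is a description of the letters and shows no binding.

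The other genes with the largest lower values were Sult1a1 (-2.82), a sulfotransferase of drugs and hormones, the secreted guidance cue Sema3g (-2.73), Tmem182 (-2.54), the carbonic anhydrase Car3 (-2.51), the angiopoietin-like gene Angptl1 (-2.50), the metalloreductase Steap4 (-2.42), the FOXO1 corepressor gene Fcor (-2.37), Selenbp1 (-2.37), the lipid droplet gene Cidec (-2.34), the cytochrome oxidase subunit Cox8b (-2.31) and Ffar2 (-2.26), a receptor for short-chain fatty acids. Tmem182, Angptl1, Steap4, Selenbp1 and Cox8b were under the detection level with t10,c12-CLA, and with such values raised to the level their differences were between -2.26 and -1.44. The other probe sets of Angptl1 and Steap4 differed by only -0.02 and -0.25. Over all 2-fold lower genes, 99 other probe sets in 70 genes reached the level, of which 93 (93.9%) had the same sign, 53 were also 2-fold lower and 0 were 2-fold higher.

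Genes that mark a mature adipocyte were lower with t10,c12-CLA: 12 of the 19 detected ones lay past the 2-fold line on that side and 0 on the other, and their median difference was -1.60 against 0.01 over all detected genes. Cidec, which fuses lipid droplets into a single large one, was at 13.54 with ethanol, 13.52 with tenofovir, 7.34 with ritonavir, 12.50 with DMSO, 12.63 with c9,t11-CLA and 10.29 with t10,c12-CLA. Adipoq, which encodes adiponectin, was at 14.79, 14.82, 10.18, 14.64, 14.67 and 13.08, a difference of -1.60 between the isomers. The c9,t11-CLA values were 0.13 and 0.04 above those with DMSO. Markers of the list did not all differ: Fabp4, the fatty acid binding protein of fat cells, was at 14.83 with c9,t11-CLA and 14.63 with t10,c12-CLA, the lipoprotein lipase gene Lpl at 14.91 and 14.69, and Plin4, a lipid droplet coat protein, at 12.95 and 12.996. Pck1, one of the 12, was under the level on both isomer arrays, and with low values set to the level 11 genes were 2-fold lower with a median of -1.46. Lep also lay under it on both. In pooled RNA from a whole dish, fewer mature cells and less RNA of these genes per cell cannot be told apart.

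Among 22 adipogenic transcription factors, 2 were 2-fold lower, 1 was 2-fold higher and the median was -0.17. Pparg was at 12.97 with ethanol, 12.95 with tenofovir, 10.48 with ritonavir, 11.89 with DMSO, 12.09 with c9,t11-CLA and 11.25 with t10,c12-CLA, a difference of -0.83 that missed 2-fold. Cebpa was at 12.18, 12.21, 8.68, 11.49, 11.86 and 10.65, a difference of -1.22. The glucocorticoid-induced factor Klf15 differed by -1.58 and the liver X receptor gene Nr1h3 by -0.97. On the high side stood Klf5 (1.04), an early factor of adipogenesis, and Id2 (0.73), a dominant negative helix-loop-helix protein, and Srebf1 was at 10.72 and 10.26 (-0.46). The median of the factors lay nearer to that of all genes than the median of the mature markers did. The list mixes factors of unlike roles, with 6 members above 0 and 16 below. Its median therefore does not stand for Pparg, Cebpa, Klf15 or Nr1h3, which were all lower.

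In fatty acid synthesis, desaturation and elongation, 0 of 22 detected genes were 2-fold higher and 7 were 2-fold lower, and the median was -0.58. Scd1, the stearoyl-CoA desaturase that makes oleate, was at 14.76 with ethanol, 14.74 with tenofovir, 12.32 with ritonavir, 14.04 with DMSO, 14.18 with c9,t11-CLA and 12.33 with t10,c12-CLA, a difference of -1.85 (3.61-fold). Fasn, the fatty acid synthase, was at 12.81, 12.83, 11.34, 12.41, 12.67 and 11.34, a difference of -1.33, and Acss2, which makes acetyl-CoA from acetate, differed by -1.75. For Scd1 and Fasn the t10,c12-CLA array lay almost level with the array of ritonavir alone. Fads3 (0.27) and Elovl1 (0.16), a desaturase family member and an elongase of very long chains, were the 2 genes of the list above 0.

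Triglyceride synthesis had 9 of 17 detected genes 2-fold lower, Pck1 among them, 0 higher and a median of -1.01. Once low values are set to the detection level these were 8 genes and a median of -0.56. Besides Gpd1 these included the acyltransferase Gpat3 (-1.38) and the seipin gene Bscl2 (-1.35), which helps lipid droplets bud. Of 14 lipid droplet and lipolysis genes 6 were 2-fold lower: the hormone-sensitive lipase Lipe, at 12.41 with c9,t11-CLA and 10.77 with t10,c12-CLA (-1.63), is one of them, and the antilipolytic nicotinic acid receptor Hcar2 (-1.71) another. Plin2, the coat protein of small droplets in many cell types, ran the other way. It was at 13.81 with ethanol, 13.82 with tenofovir, 13.05 with ritonavir, 13.44 with DMSO, 13.45 with c9,t11-CLA and 14.18 with t10,c12-CLA, its highest value of the 6 arrays, a difference of 0.73. Its relatives Plin3 (0.41) and Plin5 (0.12) were also above 0.

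Genes of fatty acid use were split. Of 22 detected fatty acid oxidation genes 2 were 2-fold higher and 0 lower, although the median was -0.30 and 15 lay below 0. Pdk4, the kinase that shuts off pyruvate oxidation when fatty acids are plentiful, was at 9.37 with ethanol, 9.31 with tenofovir, 10.40 with ritonavir, 9.96 with DMSO, 9.99 with c9,t11-CLA and 11.17 with t10,c12-CLA, a difference of 1.18. Cpt1a, the gate of fatty acids into mitochondria, was at 9.79, 9.65, 9.32, 9.91, 10.04 and 11.04, just past 2-fold. Enzymes and electron carriers of the list were on both sides of 0, with Hadhb at -0.65 and Etfdh at -0.66 below it and Acadl at 0.14 and Acaa2 at 0.11 above. Of 16 genes of uptake, binding and activation 0 were 2-fold apart in either direction. Angptl4, the lipoprotein lipase inhibitor that fatty acids induce through PPAR factors, was at 12.30, 12.32, 10.05, 11.39, 11.77 and 12.51 (0.74). Pdk4, Cpt1a, Plin2 and Angptl4, all textbook targets of the PPAR factors, had their highest value of the 6 arrays with t10,c12-CLA, while Cidec, Adipoq and Lipe, also PPAR gamma targets, were lower there than with c9,t11-CLA. These genes were grouped with their values known, and a role of the PPAR factors was not tested.

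Oxidative phosphorylation genes differed little each but in 1 direction: 0 of 26 were 2-fold apart, all 26 lay below 0, and the median was -0.34. Sdha, a subunit of complex II, was lowest at -0.65, with 12.66 and 12.02 on the c9,t11-CLA and t10,c12-CLA arrays. Of 7 detected brown and beige adipocyte genes, Cox8b and Cox7a1 (-2.05) were 2-fold lower and 0 lay above 0. Insulin signalling and glucose uptake had 2 of 20 genes 2-fold lower. Slc2a4, which encodes the insulin-responsive glucose transporter GLUT4, was at 11.84 with ethanol, 11.72 with tenofovir, 8.10 with ritonavir, 10.18 with DMSO, 10.34 with c9,t11-CLA and 8.30 with t10,c12-CLA, a difference of -2.04 (4.11-fold). Pde3b, the phosphodiesterase through which insulin restrains lipolysis, differed by -1.33. Of 23 glycolysis and hypoxia response genes, Pfkfb3 (-1.80), Ankrd37 (-1.75) and Egln3 (-1.65) were 2-fold lower and 0 were 2-fold higher, with a median of -0.30 that was -0.18 once low values are set to the level.

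**Figure D2:**
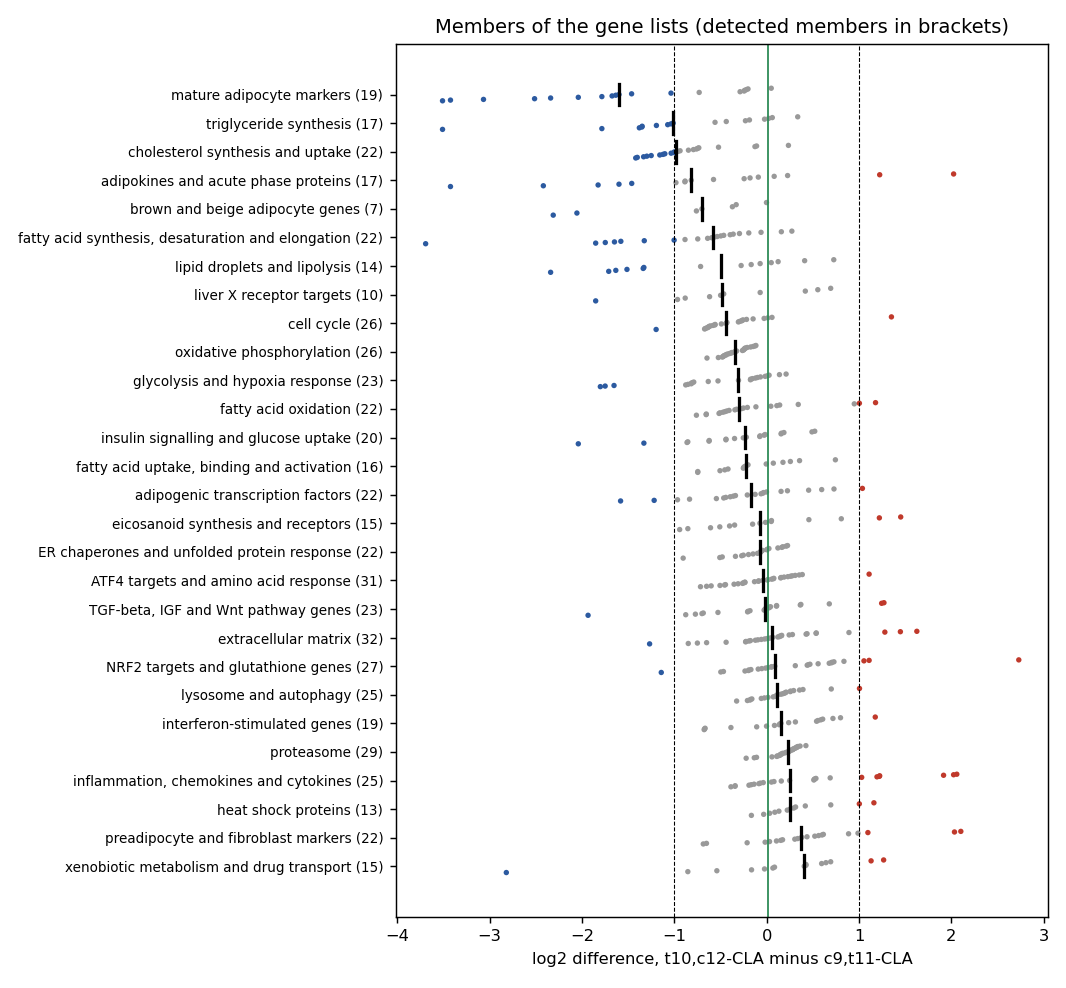
Log2 difference, t10,c12-CLA minus c9,t11-CLA, of each detected member of the 28 gene lists, 1 point per gene and 1 row per list, ordered by the list median (black bar). Points at least 2-fold lower are blue and at least 2-fold higher red, the dashed lines mark 2-fold, and the green line is the median of all detected genes, 0.01. The mature adipocyte row has the lowest median, -1.60, and all 26 oxidative phosphorylation genes lie left of 0.

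Cholesterol synthesis and uptake genes were lower with t10,c12-CLA, with 11 of 22 at least 2-fold lower, 0 higher, 21 below 0 and a median of -0.98. Idi1, which isomerises the isoprenoid building block, was at 11.21 with ethanol, 11.35 with tenofovir, 10.50 with ritonavir, 11.59 with DMSO, 11.45 with c9,t11-CLA and 10.04 with t10,c12-CLA, a difference of -1.42. Pmvk, the phosphomevalonate kinase, was at 10.63, 10.70, 8.60, 10.02, 10.02 and 8.62 (-1.40), and Dhcr7, a late enzyme of the pathway, at 11.01, 10.90, 9.71, 10.88, 11.07 and 9.74 (-1.33). Idi1 was lower with t10,c12-CLA than on any other array, while Pmvk and Dhcr7 were level with ritonavir alone. Insig1, a brake on SREBP, differed by -0.94. Scap, which escorts SREBP, was the exception at 0.24. Against DMSO the list median was -0.98 for t10,c12-CLA, with 9 genes 2-fold lower, and 0.01 for c9,t11-CLA, with 0.

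Upstream windows of the cholesterol genes shared the CCAAT box, the letters bound by the factor NF-Y, which is known to work with SREBP. It was in 16 of 18 windows (88.9%) against 36.3% of all detected genes, and the GC box, GGGCGG or its reverse, was in 83.3% against 58.6%. Among the cholesterol genes at least 2-fold lower the CCAAT box was in 7 of 8 windows (87.5%), near the share of the whole list. Insig2 (-0.13) and Ebp (-0.11), which hardly differed, also held it, so the box does not set the lower genes of the list apart. The sterol element TCACNCCAC was in 1 of 18 windows and in 0.939% of all, and a sterol element can deviate from these letters. Stretches of 60 bases around the box are shown for the 3 lower genes with the largest difference that hold one, a choice made after the values were seen. They are chr13:8885546-8885605 (plus strand) for Idi1, chr3:89454377-89454436 (plus strand) for Pmvk and chr5:4104698-4104757 (minus strand) for Cyp51 (-1.30), a sterol demethylase, on GRCm38.p6, with the box in capitals.
Idi1: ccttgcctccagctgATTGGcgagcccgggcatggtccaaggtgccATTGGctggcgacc
Pmvk: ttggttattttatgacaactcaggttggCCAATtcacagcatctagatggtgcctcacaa
Cyp51: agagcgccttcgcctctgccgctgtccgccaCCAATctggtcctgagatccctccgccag
Idi1 has 2 such boxes, the second of them at -14 from the start, and those of Pmvk and Cyp51 begin at -136 and -29. Pmvk has 2 windows in the table, of which the upstream one is shown.

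Liver X receptor targets included only Scd1 among 2-fold lower genes, and the lipid exporter Abcg1 (0.55) and the transfer protein Pltp (0.69) were above 0, with a median of -0.48 over 10 genes. Adipokines and acute phase proteins had 5 of 17 genes 2-fold lower, with Retn, Steap4 and the acute phase gene Orm1 (-1.82) in front, and 2 higher, Ccl2 and Il6. Lcn2, the lipocalin of inflamed fat, was at 9.57 with c9,t11-CLA and 9.79 with t10,c12-CLA. It was at 13.65 with ethanol, 9.42 with ritonavir alone and 9.82 with ritonavir and DMSO. All the ritonavir arrays, with or without CLA, thus lay far under ethanol.

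The higher genes opened with Hmga2, an architectural chromatin protein of embryonic and dividing cells. It was at 8.95 with ethanol, 8.81 with tenofovir, 10.85 with ritonavir, 9.24 with DMSO, 9.22 with c9,t11-CLA and 12.04 with t10,c12-CLA, a difference of 2.82 (7.05-fold), and its other probe sets differed by 2.98 and 3.08. Serpinb9b, a member of the serpin family of protease inhibitors, was at 7.27, 7.57, 7.86, 7.36, 7.44 and 10.24, a difference of 2.80. Gsta2, a glutathione transferase, was at 4.60, 4.80, 6.52, 7.24, 7.0 and 9.73, a difference of 2.73. In all 3 genes the t10,c12-CLA array was the highest of the 6. They differed in what ritonavir alone showed, since Serpinb9b was 0.59 above ethanol there and Hmga2 1.90. The probe set of Gsta2 may also read its near-identical paralogs.

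The upstream windows of these genes are chr10:120476470-120476719 (minus strand) for Hmga2, chr13:33027164-33027413 (plus strand) for Serpinb9b and chr9:78347146-78347395 (minus strand) for Gsta2, on GRCm38.p6 and read in the gene's direction. Capitals mark a GC box at -133 in Hmga2, and in Gsta2 the TATA letters, TATAAA or TTTATA, at -246 and a CCAAT box at -50, and the window of Serpinb9b held none of the 11 motifs searched.
Hmga2: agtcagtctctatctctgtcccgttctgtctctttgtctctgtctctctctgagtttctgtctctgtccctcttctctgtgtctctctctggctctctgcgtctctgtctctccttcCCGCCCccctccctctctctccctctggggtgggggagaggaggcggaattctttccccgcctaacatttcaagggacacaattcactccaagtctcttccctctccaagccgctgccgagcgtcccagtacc
Serpinb9b: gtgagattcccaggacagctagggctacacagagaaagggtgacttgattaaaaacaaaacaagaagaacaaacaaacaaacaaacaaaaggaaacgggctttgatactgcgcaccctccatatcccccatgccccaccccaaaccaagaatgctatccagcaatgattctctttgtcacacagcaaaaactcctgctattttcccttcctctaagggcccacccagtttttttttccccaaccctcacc
Gsta2: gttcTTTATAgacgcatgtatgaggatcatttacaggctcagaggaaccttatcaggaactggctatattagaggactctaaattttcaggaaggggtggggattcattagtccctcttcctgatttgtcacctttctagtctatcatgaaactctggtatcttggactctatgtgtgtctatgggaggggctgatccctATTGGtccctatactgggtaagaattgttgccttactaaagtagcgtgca
Among the 92 windows of higher genes, the AP-1 letters TGANTCA, which are bound by Fos and Jun proteins, occurred in 14 (15.2%), against 4.38% of all detected genes and 3.68% of lower genes. The TATA letters occurred in 17.4% of them, against 6.72% of all and 7.35% of lower genes. The 60 bases around the AP-1 letters are shown for the 3 genes with the largest difference that hold them, again chosen after the values were seen: S100a7l2, chr3:91090850-91090909 (minus strand), Ctla2b, chr13:60897558-60897617 (minus strand), and Procr, chr2:155751036-155751095 (plus strand).
S100a7l2: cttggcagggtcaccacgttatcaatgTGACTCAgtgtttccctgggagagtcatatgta
Ctla2b: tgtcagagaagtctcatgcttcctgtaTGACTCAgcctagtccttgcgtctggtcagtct
Procr: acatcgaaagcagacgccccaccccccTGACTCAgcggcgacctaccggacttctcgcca
All 3 stretches carry the same 7 letters, TGACTCA, at -77, -143 and -154. Il6 and Mmp13 are among the other genes with the AP-1 letters.

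Further down came S100a7l2 (2.68), an S100 protein, the lubricin gene Prg4 (2.64), Ctla2b (2.33), which encodes a cysteine protease inhibitor, Procr (2.31), the receptor of protein C, the cyclic GMP kinase Prkg2 (2.26), the matricellular Ccn1 (2.10) and Ccn2 (2.03), Serpinb1b (2.09) and Tm4sf1 (2.03), a tetraspanin-like surface protein. S100a7l2, Ctla2b, Serpinb1b and Ccn2 were under the level with c9,t11-CLA, and with such values raised to it their differences were 1.33, 0.94, 0.68 and 0.53. Prg4 was at 7.89 with ethanol, 7.66 with tenofovir, 5.71 with ritonavir, 7.28 with DMSO, 7.27 with c9,t11-CLA and 9.91 with t10,c12-CLA. It was the exception among these genes in that ritonavir alone had its lowest value and t10,c12-CLA its highest. Over the 2-fold higher genes, 69 other probe sets in 45 genes reached the level, of which 65 (94.2%) had the same sign, 36 were 2-fold higher and 0 were 2-fold lower.

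**Figure D3:**
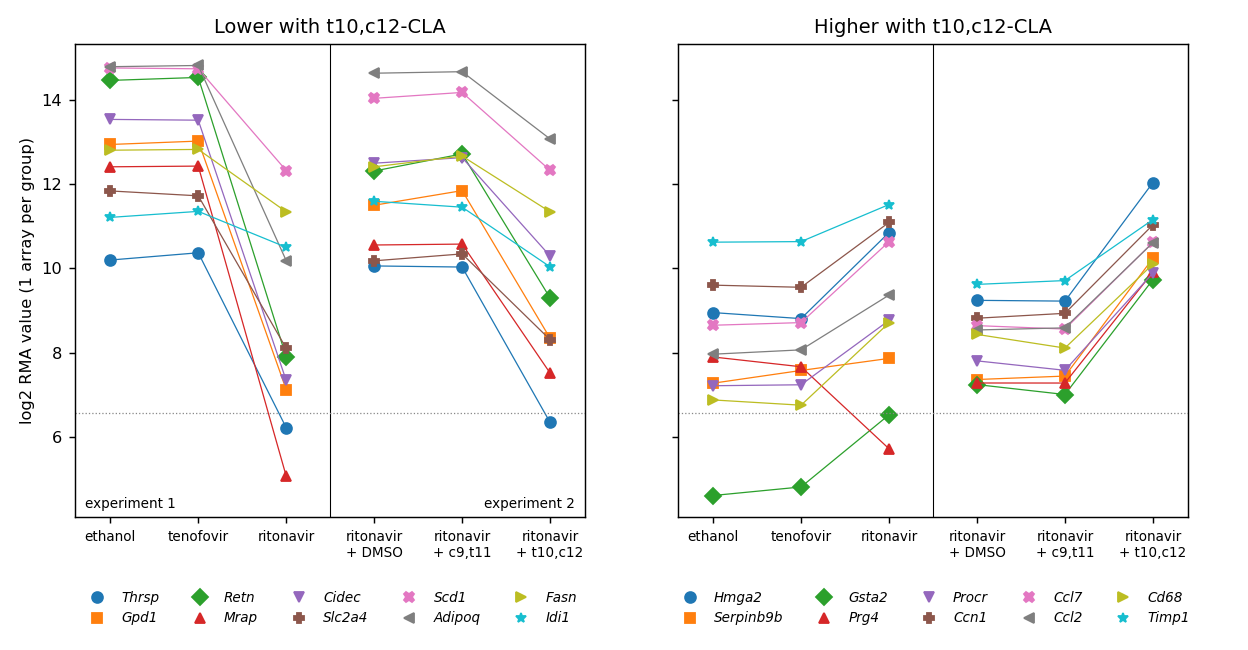
Log2 RMA value on each of the 6 arrays for 10 genes that were lower (left) and 10 that were higher (right) with t10,c12-CLA than with c9,t11-CLA. The vertical line separates the arrays of ethanol, tenofovir and ritonavir alone from those of ritonavir with DMSO or CLA. The word experiment printed in the left panel stands for these sides, and the sample labels name no experiment. The dotted line is the detection level of 6.55, and each point is 1 array. In the left panel the c9,t11-CLA points lie near those of DMSO and the t10,c12-CLA points below them, and in the right panel the t10,c12-CLA points lie above, with Prg4 the gene that is lowest with ritonavir alone.

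Inflammation genes had 7 of 25 members 2-fold higher and 0 lower, with a median of 0.25. Ccl2, the monocyte chemokine, was at 7.96 with ethanol, 8.06 with tenofovir, 9.36 with ritonavir, 8.54 with DMSO, 8.59 with c9,t11-CLA and 10.61 with t10,c12-CLA, a difference of 2.02 (4.07-fold). Its relatives Ccl7, at 8.65, 8.71, 10.63, 8.64, 8.56 and 10.62 (2.06), and Ccl8, at 7.07, 7.47, 8.04, 7.15, 7.43 and 9.35 (1.92), lie near it on chromosome 11, so the 3 are not independent in position. Ccl7 was as high with ritonavir alone as with t10,c12-CLA, while Ccl2 and Ccl8 were higher with t10,c12-CLA than anywhere else. The cytokine gene Il6 was at 5.42, 5.56, 8.79, 6.92, 6.36 and 7.59, a difference of 1.22 with the c9,t11-CLA value under the level. Ptgs2, the inducible cyclooxygenase, was at 5.69, 5.91, 7.74, 7.58, 7.17 and 8.39 (1.22). The list was not uniform, since Cxcl10 (-0.39), Tnfaip3 (-0.34) and Relb (-0.34), genes of interferon and NF-kB signalling, were below 0 and 9 of 25 members were. The chemokine gene Ccl6, which is not on the list and was picked after its value was seen, was 2-fold lower, at 10.87 with c9,t11-CLA and 9.27 with t10,c12-CLA (-1.59).

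Markers of macrophages were read beside these genes. Cd68, a lysosomal membrane protein of macrophages that other cells can express, was at 6.87 with ethanol, 6.75 with tenofovir, 8.71 with ritonavir, 8.43 with DMSO, 8.11 with c9,t11-CLA and 10.10 with t10,c12-CLA, a difference of 1.99. Of the 10 macrophage markers with a probe set 4 were detected, Cd14 differed by 0.48 and Csf1r by 0.10, and the defining markers Ptprc, Adgre1, Itgam, Tyrobp, Mrc1 and Aif1 were under the level on all 6 arrays. The summed level of the 10 markers, as log2 of the sum of unlogged values, was 10.14 with c9,t11-CLA and 11.07 with t10,c12-CLA, and lay between 9.56 and 10.26 on the other 4 arrays. Cd68 carried most of that gain: Lyz2 was at 6.397 and 6.462 and Csf1r at 7.48 and 7.58 on the same arrays. The part of such cells in the values of the inflammation genes was not tested. Of the detected endothelial (4 of 10), skeletal muscle (4 of 11), bone (5 of 7) and epithelial (6 of 8) markers, 0 were 2-fold apart between the isomers.

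Preadipocyte and fibroblast markers were higher with t10,c12-CLA in 18 of 22 cases, 3 of them at least 2-fold, 0 were 2-fold lower and the median was 0.38. Ccn2, 1 of the 3, was under the level with c9,t11-CLA, and with low values set to the level 2 genes were 2-fold higher. Ccn1 was at 9.6 with ethanol, 9.55 with tenofovir, 11.09 with ritonavir, 8.81 with DMSO, 8.93 with c9,t11-CLA and 11.03 with t10,c12-CLA. S100a4, a calcium-binding protein of fibroblasts, was at 11.90, 12.13, 13.07, 12.16, 12.17 and 13.26 (1.10). Both were high on the arrays of t10,c12-CLA and of ritonavir alone and low on the other 4. Wnt5a (-0.69), Fgf10 (-0.65) and Sox9 (-0.21) lay below 0. Among 32 extracellular matrix genes 3 were 2-fold higher, the collagenase Mmp13 (1.63), the protease inhibitor Timp1 (1.45) and the thrombospondin Thbs1 (1.28), and 1 was lower, the basement membrane collagen Col15a1 (-1.27). Over all detected genes 0.953% were 2-fold higher and 1.53% lower. In the TGF-beta, IGF and Wnt list the activin subunit genes went apart, with Inhba at 1.27 and Inhbb at -1.93, but Inhbb was under the level with t10,c12-CLA (-1.06 with that value raised to it), and its other probe set differed by 0.03.

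Cell cycle genes had 1 of 26 members 2-fold higher, the G1 cyclin gene Ccnd1, and 1 lower, the S phase cyclin gene Ccne2 (-1.20), with a median of -0.44. The shares over all detected genes were 0.953% higher and 1.53% lower. Ccnd1 was at 8.91 with ethanol, 8.80 with tenofovir, 10.96 with ritonavir, 9.57 with DMSO, 9.62 with c9,t11-CLA and 10.97 with t10,c12-CLA (1.35). The mitotic genes of the list stood differently from the lipid genes when each isomer was set beside DMSO. Mki67, the proliferation marker, was at 8.93 with DMSO, 9.45 with c9,t11-CLA and 8.78 with t10,c12-CLA, and the mitotic kinase gene Plk1 at 8.13, 8.80 and 8.14. For these 2 genes it was the c9,t11-CLA array that stood off. The list median was 0.41 for c9,t11-CLA minus DMSO, with 25 of 26 genes above 0, where 52.3% of all detected genes were. For t10,c12-CLA minus DMSO the list median was -0.08.

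Of 31 targets of ATF4, the factor of the amino acid and integrated stress responses, 1 was 2-fold higher, the cystine transporter Slc7a11 (1.11), and the median was -0.04. For this and the next lists, the shares over all detected genes were 0.953% higher and 1.53% lower. Ddit3, at 13.39 with c9,t11-CLA and 13.41 with t10,c12-CLA, Trib3 (-0.25) and Atf3 (0.39) were close on both isomer arrays. Of 22 genes of ER chaperones and the unfolded protein response 0 were 2-fold apart, with a median of -0.07 and Xbp1 lowest at -0.90. Among 27 NRF2 targets and glutathione genes 3 were 2-fold higher, Gsta2, Slc7a11 and Gclm (1.05), which limits glutathione synthesis, and 1 was lower, the extracellular dismutase Sod3 (-1.14), with a median of 0.09. Gclm was at 11.52 with ethanol, 11.50 with tenofovir, 11.30 with ritonavir, 12.08 with DMSO, 11.95 with c9,t11-CLA and 13.004 with t10,c12-CLA, so that the latter alone stood high. Of 13 heat shock genes 2 were 2-fold higher, Hspb1 (1.16) and Cryab, and 11 were above 0. Proteasome subunits had 0 of 29 genes 2-fold apart but 26 above 0, where 51.8% of all detected genes were, a median of 0.23 and Psmc4 highest at 0.42.

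Smaller groups had 1 to 3 genes past 2-fold, where 0.953% of all detected genes were 2-fold higher and 1.53% lower. Single genes in such short lists are a description and no result about the list. The interferon-stimulated genes had Ifit2 (1.18) of 19 and a median of 0.15, while the immunoproteasome genes Psmb8 and Psmb9 were below 0 (-0.67 and -0.68). The lysosome and autophagy list had the galactosidase gene Gla of 25 and a median of 0.12, with the cathepsin gene Ctsk at 0.70. Xenobiotic metabolism had the dioxin receptor Ahr (1.13) and Aldh1a1 (1.27) higher and Sult1a1 lower, of 15, with a median of 0.41 that was 0.22 once low values are set to the level. In the eicosanoid list Pla2g7 (1.45), which breaks down platelet-activating factor, and Ptgs2 were higher, of 15, and Plaat3, a phospholipase of fat cells, was at -0.94. The c9,t11-CLA values of Aldh1a1 and Pla2g7 were under the level, and with such values raised to it the differences were 0.22 and 0.87.

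Each isomer was then set beside the array of ritonavir and DMSO. Both differences share that array, so they are given side by side and no likeness of them is drawn. With t10,c12-CLA, 97 genes were 2-fold higher than with DMSO (0.783%) and 130 lower (1.05%). With c9,t11-CLA 0 genes were 2-fold higher (0%) and 1 was lower (0.00807%), the gene with the accession symbol AY036118 at -1.07, which was picked by its value. Among the 189 genes lower with t10,c12-CLA than with c9,t11-CLA, c9,t11-CLA lay within 1.5-fold of DMSO for 186, with a median difference of 0.18, and t10,c12-CLA lay below DMSO for 189, with a median of -1.12. Of the 118 higher genes, c9,t11-CLA lay within 1.5-fold of DMSO for 117, with a median of -0.08, and t10,c12-CLA above DMSO for 118. The genes were chosen by the isomer values themselves, which favours c9,t11-CLA and t10,c12-CLA on opposite sides of DMSO, so these counts are a description. Lipe, at -1.07 and 0.57, Car3, at -2.0 and 0.52, and Cebpa, at -0.85 and 0.37, are examples of lower genes with a c9,t11-CLA value above that of DMSO, given as t10,c12-CLA and c9,t11-CLA minus DMSO.

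**Figure D4:**
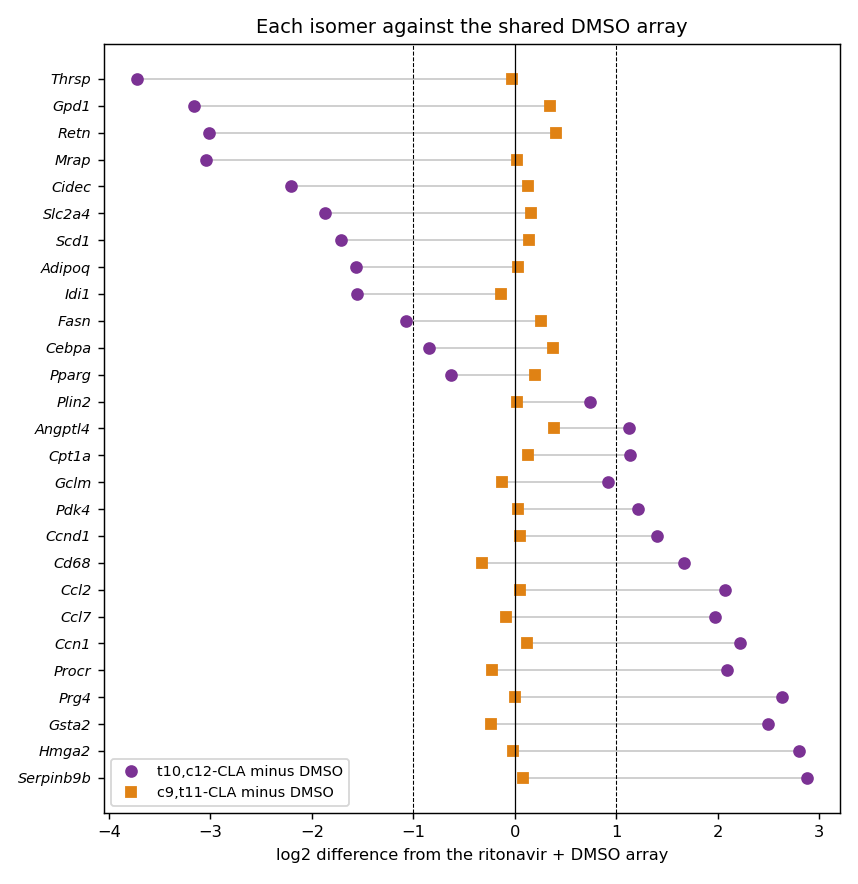
Log2 difference from the ritonavir and DMSO array for t10,c12-CLA (circles) and c9,t11-CLA (squares) in 27 named genes, 1 array per group. The dashed lines mark 2-fold. The c9,t11-CLA squares lie between -0.32 (Cd68) and 0.41 (Retn), while the circles reach from -3.72 (Thrsp) to 2.88 (Serpinb9b).

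The genes chosen by the isomer difference were then looked up on arrays that the choice did not use. On the ritonavir and ethanol arrays, 184 of the 189 lower genes (97.4%) were lower with ritonavir, 165 of them (87.3%) at least 2-fold, where 6.39% of all detected genes were 2-fold lower, and the median was -2.20. Of the 118 higher genes 102 (86.4%) were higher with ritonavir, 75 (63.6%) at least 2-fold, where 4.56% of all were, and the median was 1.31. The genes that separated the isomers were thus largely genes that also separated ritonavir from its vehicle, and with the same sign. Across all 12386 detected genes, which are not independent replicates, the isomer difference and the ritonavir difference had a Pearson r of 0.640 and a Spearman rho of 0.527. These contrasts share no array, but they share the cell line, the platform and the drug.

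With ritonavir and DMSO the same genes lay closer to ethanol. Of the lower genes 157 (83.1%) were lower there than with ethanol, 64 (33.9%) at least 2-fold against 2.99% of all, with a median of -0.72. Of the higher genes 82 (69.5%) were higher, 22 (18.6%) at least 2-fold against 1.52% of all, with a median of 0.26. Hence 183 of the lower genes had a higher value with ritonavir and DMSO than with ritonavir alone, with a median difference of 1.53, and 101 of the higher genes a lower one, with a median of -0.95. Those 2 ritonavir arrays differ in the vehicle named and may also come from separate experiments, and these cannot be told apart. Tenofovir against ethanol showed 0 genes 2-fold higher or lower (0%), and medians of 0.01 and 0.00 for the lower and the higher genes.

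**Figure D5:**
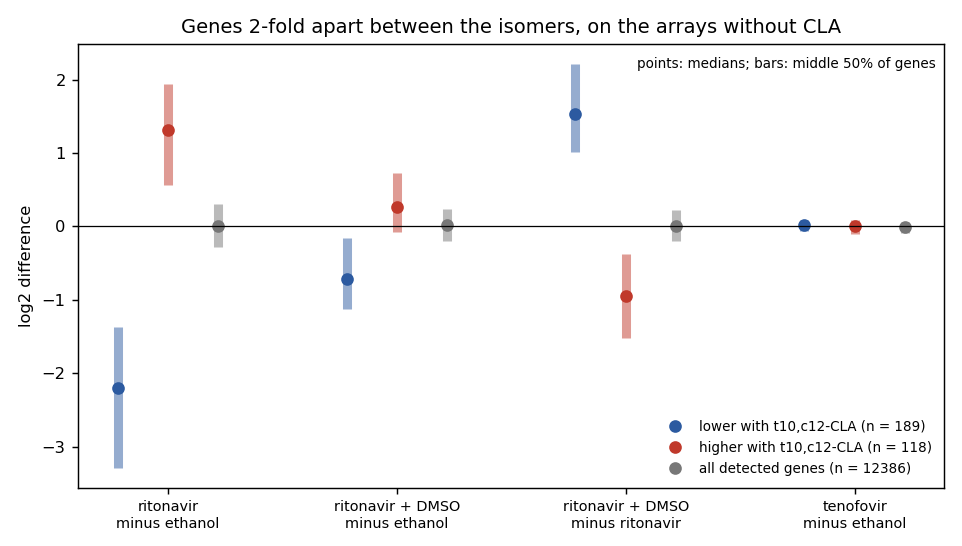
Median (point) and middle 50% (bar) of the log2 differences of the 189 genes lower and 118 genes higher with t10,c12-CLA than with c9,t11-CLA, and of all 12386 detected genes, in 4 comparisons of arrays without CLA. The lower genes have medians of -2.20 in ritonavir minus ethanol and -0.72 in ritonavir with DMSO minus ethanol, the higher genes 1.31 and 0.26, and all groups lie near 0 for tenofovir.

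Ordered by the median level of the 189 lower genes, the arrays ran from ethanol and tenofovir (both 10.7) over c9,t11-CLA (10.0) and DMSO (9.81) to t10,c12-CLA (8.41) and ritonavir alone (7.81). Neighbours in this order cannot be told apart by any replicate spread. The lowest value was with ritonavir alone for 129 of these genes and with t10,c12-CLA for 59. For the 118 higher genes the medians were 8.04 with ethanol and with tenofovir, 8.28 with c9,t11-CLA, 8.35 with DMSO, 9.35 with ritonavir alone and 9.73 with t10,c12-CLA, and the highest value was with t10,c12-CLA for 72 and with ritonavir alone for 41. These genes were chosen by their values on the isomer arrays, so the place of those arrays in both orders is a description set in part by the choice.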

How the data were processed

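The 6 arrays are single hybridisations of RNA pooled from 4 experiments per group, per the labels' protocols. The authors deposited log2 values of 45101 probe sets, made with RMA in Affymetrix Expression Console per the submitters' processing notes; the sources used here give no settings. RMA equalises the arrays' distributions, so a shift shared by most genes would be removed, and values near the top (15.0) can be compressed. Array medians lay between 6.54 and 6.56.

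Probe sets were named from the platform annotation: 34958 had 1 symbol, 932 had several and 9211 were not listed; the last 2 kinds are unnamed here. Each gene is represented by the probe set of highest average value across all arrays. Log2 values were subtracted between arrays and 2-fold differences counted, with no test. The counting was tested on simulated data. The members and the 28 gene lists were chosen with earlier results of these data known. Named genes are the 15 largest in each direction past 2-fold, up to 3 per list and direction, and a fixed set of lipid, adipokine and stress genes. Clone symbols (0 higher, 8 lower between the isomers) are counted but not named, save AY036118 in the comparison with DMSO. Upstream windows come from RefSeq (GRCm38.p6), with the most upstream one per gene. Python 3.11.15, numpy 2.4.6, pandas 2.3.3, statsmodels 0.14.6 and matplotlib 3.10.9 were used.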

Additional observations from a re-analysis of the deposited data

Results flagged for a closer look

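Among probe sets without a single gene name, which enter no comparison above, 58 of the 3015 that reached the detection level were at least 2-fold apart between the isomers, 27 higher and 31 lower with t10,c12-CLA, with differences between -3.60 and 3.02, and 0 were between tenofovir and ethanol.

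For a pair of genes that reached the detection level on at least 1 isomer array, the isomers lay on opposite sides of DMSO by at least 1.5-fold each, which was not tested. Esco2 did so too (-0.60 for t10,c12-CLA and 0.69 for c9,t11-CLA minus DMSO), but its values on both isomer arrays were under the level. Hcar2, the nicotinic acid receptor of fat cells, was at 8.50 with DMSO, 9.10 with c9,t11-CLA and 7.39 with t10,c12-CLA, a difference of -1.71 between the isomers. S100a7l2 was at 5.87 with DMSO, 5.21 with c9,t11-CLA and 7.89 with t10,c12-CLA, a difference of 2.68, but its DMSO and c9,t11-CLA values were under the detection level.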

How the results depend on the processing

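With 1 array per group, no difference has a replicate check, and a 2-fold line on single arrays decides every count. No paired analysis was possible because each group has 1 array. At 1.5-fold, 388 genes were higher and 614 lower with t10,c12-CLA than with c9,t11-CLA, and in place of the genes at least 2-fold apart between t10,c12-CLA and DMSO there were 876, and 21 for c9,t11-CLA and DMSO. At 3-fold these counts were 23, 53, 61 and 0. Without a detection filter 2 genes, in place of 1, were 2-fold apart between c9,t11-CLA and DMSO. Under the other alternatives (the mean of a gene's probe sets, no cross-hybridising probe sets, other detection filters, low values raised to the level, quantile normalization again, the trend on mean expression removed) the count of higher genes lay between 85 and 123 and that of lower genes between 153 and 193, all within 1.5-fold of 118 and 189. Of the 76 named genes past 2-fold, 10 of the 74 left fell short of it with the mean of all probe sets and 5 with low values raised to the level. Of the 28 gene list medians, between 0 and 6 moved under an alternative, 6 of them with the stricter detection filter, under which that of the inflammation list was 0.52 and that of the interferon list 0.56. The median of the TGF-beta, IGF and Wnt list, near 0, changed sign without a filter and with quantile normalization again.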

Other observations

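A pair of gene groups was drawn up after the values had been seen and is given only as a description. Of 23 detected genes of branched-chain amino acid breakdown, a pathway that feeds fat synthesis in adipocytes, 4 were 2-fold lower with t10,c12-CLA than with c9,t11-CLA, 0 were 2-fold higher, 22 lay below 0 and the median was -0.70. Dbt, a subunit of the branched-chain ketoacid dehydrogenase, was at 10.30 with c9,t11-CLA and 8.84 with t10,c12-CLA (-1.46), Aldh6a1 differed by -1.40, the mitochondrial aminotransferase Bcat2 by -1.14 and Hibch by -1.05. The cytosolic aminotransferase Bcat1 was the 1 gene above 0, at 0.97. The median of the group was -0.65 for t10,c12-CLA minus DMSO and 0.05 for c9,t11-CLA minus DMSO.

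Of 28 detected genes of the actin cytoskeleton, 5 were 2-fold higher, 0 lower and 24 above 0, with a median of 0.51. They were the focal adhesion gene Tes (1.5), the calponin gene Cnn2 (1.34), the tropomyosin gene Tpm1 (1.20), Tagln2 (1.06) and Fhl2 (1.06). The smooth muscle actin gene Acta2 was at 12.34 with c9,t11-CLA and 13.22 with t10,c12-CLA, while Actb, the common actin, was at 14.36 and 14.44.

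Some of the 2-fold genes lie near each other in the genome, though not always side by side. Besides Ccl2, Ccl7 and Ccl8, the serpin genes Serpinb1a (1.01), Serpinb9b and Serpinb1b on chromosome 13 were all higher, with Serpinb1a and Serpinb1b under the detection level with c9,t11-CLA, and Retn and Fcor on chromosome 8 were both lower. Other neighbouring family members differed in opposite directions: Aldh1a1 (1.27) and Aldh1a7 (-1.51) on chromosome 19, Adh7 (1.13) and Adh1 (-1.30), and S100a4 (1.10) and S100a1 (-1.37), both pairs on chromosome 3. These genes were picked after their values were seen.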
